A study of Homo sapiens with 40 samples.

Results

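The cyclin A, B, E and F genes together with CDK1 and CDK2 were examined for the acetylated histone mark H3K27ac, CTCF binding and listed regulatory regions in a human beta-cell line before and after induced senescence. The members were chosen by name: CCNA2, CCNB1, CCNB2, CCNE1, CCNE2, CCNF, CDK1 and CDK2, 8 of 19676 protein-coding genes in GENCODE 44. A peak belonged to a gene when it lay within 2 kb of one of its start sites (the promoter window), in its gene body, or nearest to it within 100 kb. Coordinates are 1-based positions on hg38. This rule found 18 of 51489 H3K27ac peaks and 20 of 51457 CTCF peaks. It also found 1 of 14886 enhancers listed for non-senescent cells, 2 of 13076 listed for senescent cells and 1 of 2435 regions with senescence-specific binding of the retinoblastoma protein Rb. A promoter H3K27ac peak was present at 7 of the 8 genes, the exception being CCNE1.

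Chromatin immunoprecipitation sequencing (ChIP-seq) of H3K27ac and of CTCF was each performed on 3 non-senescent and 3 senescent libraries of EndoC-βH3 cells, and of H3K4me1 and Rb on 2 and 2, each with its own input, 40 libraries in all. EndoC-βH3 is a line of human pancreatic beta-like cells, labelled wild type, which is immortalised by hTERT and SV40 large T antigen and carries a tamoxifen-inducible CreER recombinase. In the senescent group, 4-hydroxytamoxifen had been given for 3 weeks, which activates CreER and excises both immortalising genes; the non-senescent controls are labelled as control and keep them. Large T antigen binds Rb and p53, so the non-senescent state is one in which both proteins are held inactive, and the comparison covers the loss of the transgenes and the treatment at once. All libraries came from this 1 line and nothing in the labels says that replicates were separate cultures, so the P values measure the spread between libraries, which may be technical. Of 14 beta cell marker genes, 14 carried a promoter H3K27ac peak, whereas 4 of 15 markers of other cell types did (CD68, CPA1, KRT19 and SST). Over all 19676 protein-coding genes, 13059 carried one. The CD68 peak was wide (chr17:7570632-7585523), and whether its reads belong to CD68 was not examined. The beta cell markers with a called H3K27ac promoter were IAPP, gained (log2 fold change 0.93), and PCSK1, lost (-1.41). Among the markers of other cells, KRT19 (-0.74) and SST (-0.86) lost promoter H3K27ac. Over all genes with a promoter peak, 8.94% were called lost and 3.15% gained, and nothing is read from these few marker calls.

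Cyclins are regulatory subunits that switch on cyclin-dependent kinases (CDKs), and each class is made and destroyed in its own part of the cell cycle. Cyclins E1 and E2 pair with CDK2 around the entry into DNA replication, cyclin A2 pairs with CDK2 and then CDK1 through S and G2 phase, and cyclins B1 and B2 pair with CDK1 to drive mitosis. Cyclin F binds no CDK of its own and instead acts as the substrate-binding subunit of a ubiquitin ligase. Many of these genes are transcribed mainly in dividing cells, under the control of E2F factors with Rb-family proteins at their promoters and of the MuvB complexes, which bind the CHR element and often act together with NF-Y at CCAAT boxes. H3K27ac marks active promoters and enhancers, and CTCF is a DNA-binding protein that organises chromatin loops.

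The promoter sequences are shown first because 5 of the promoter H3K27ac losses described further on lie over them (CCNA2, CCNB1, CCNB2, CCNF and CDK1). RefSeq promoter entries (GRCh38.p14), taken by symbol, were used for 6 of the 8 genes. CDK2 and CCNE2 were left out of the sequence search, so nothing is said here on motifs at their promoters. Each stretch below runs 5′ to 3′ on the strand of the gene and, apart from the short CDK1 site, ends before the first annotated UTR base. Capitals mark exact matches, on either strand, to the CCAAT box (CCAAT), the CHR (TTTGAA or TTCGAA) and the E2F motif (TTCCCGC or TTGGCGC and, as further spellings, TTCGCGC or TTGCCGC). The stretches are chr4:121823884-121824133 on the minus strand (CCNA2), and on the plus strand chr5:69166900-69167134 (CCNB1), chr15:59104896-59105145 (CCNB2), chr19:29811741-29811990 (CCNE1), chr16:2429197-2429393 (CCNF), chr10:60778081-60778330 (CDK1, ahead of its first start site) and chr10:60778448-60778477 (CDK1, the 30 bases ahead of its canonical start site).
CCNA2: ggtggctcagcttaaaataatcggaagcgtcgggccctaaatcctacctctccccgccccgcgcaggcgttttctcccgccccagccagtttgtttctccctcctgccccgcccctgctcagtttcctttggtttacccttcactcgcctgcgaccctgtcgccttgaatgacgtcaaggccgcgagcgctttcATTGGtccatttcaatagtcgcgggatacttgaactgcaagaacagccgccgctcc
CCNB1: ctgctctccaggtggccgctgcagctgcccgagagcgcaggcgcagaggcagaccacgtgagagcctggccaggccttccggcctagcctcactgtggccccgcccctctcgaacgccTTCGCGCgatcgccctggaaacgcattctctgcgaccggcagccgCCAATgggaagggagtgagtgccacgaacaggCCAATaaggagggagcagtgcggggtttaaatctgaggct
CCNB2: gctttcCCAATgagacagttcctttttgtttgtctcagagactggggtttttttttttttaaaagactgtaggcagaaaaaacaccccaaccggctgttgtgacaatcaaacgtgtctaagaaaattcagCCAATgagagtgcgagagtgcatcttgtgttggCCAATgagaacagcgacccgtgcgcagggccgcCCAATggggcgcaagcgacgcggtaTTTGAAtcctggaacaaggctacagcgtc
CCNE1: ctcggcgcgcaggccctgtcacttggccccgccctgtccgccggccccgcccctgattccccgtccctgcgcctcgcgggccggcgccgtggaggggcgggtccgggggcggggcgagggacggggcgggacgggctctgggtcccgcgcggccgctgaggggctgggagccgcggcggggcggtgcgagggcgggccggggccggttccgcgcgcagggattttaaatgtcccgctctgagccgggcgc
CCNF: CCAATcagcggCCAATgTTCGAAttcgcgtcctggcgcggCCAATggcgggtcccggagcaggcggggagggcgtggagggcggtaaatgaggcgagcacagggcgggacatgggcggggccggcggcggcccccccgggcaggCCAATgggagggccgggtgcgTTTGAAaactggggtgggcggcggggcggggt
CDK1: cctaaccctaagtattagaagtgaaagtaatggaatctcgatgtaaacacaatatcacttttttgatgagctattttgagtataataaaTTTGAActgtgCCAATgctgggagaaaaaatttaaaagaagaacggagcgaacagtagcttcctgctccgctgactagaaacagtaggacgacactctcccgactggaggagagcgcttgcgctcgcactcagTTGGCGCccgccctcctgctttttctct
CDK1, canonical start: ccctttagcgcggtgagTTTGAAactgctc

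Across the 250 bases ahead of each start, CCAAT boxes were found in 5 of these 6 genes and in no copy at CCNE1. CCNB2 and CCNF held 4 CCAAT boxes each, CCNB1 held 2 and CCNA2 held 1, at positions -56 to -52 from its start. Ahead of the canonical CDK1 start there were 2 CCAAT boxes, 2 CHR matches and 2 E2F matches, and the nearer CHR lay at -13 to -8. CCNB2 held 1 CHR at -29 to -24, and CCNF held 2, one of each spelling. Besides CDK1, an E2F match was found only at CCNB1, at -132 to -126. No match to one of these motifs overlapped a match to another. Among 34788 RefSeq promoter stretches of the same length, 32.0% held a CCAAT box, 14.4% a CHR and 10.9% an E2F motif, and 9.53% held at least 2 CCAAT boxes. These matches describe letters only, and other spellings of the motifs were not searched. CCNE1 held no match in this window and had no promoter H3K27ac peak, but a link between these motifs and the mark was not tested.

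To assess promoter activity marks upon senescence, H3K27ac was compared between the states at the promoter peak with the highest mean count of each gene. H3K27ac was lost at the promoters of 7 of the 7 genes that had a peak, and at none was it gained. A loss was called at an adjusted P under 0.05 with a fold change above 1.5, and at these limits 8.94% of 13059 genes with a promoter peak lost H3K27ac and 3.15% gained it. The median log2 fold change (senescent over non-senescent) was -1.29 over the 7 genes and 0.038 over all 13059. The deposited tables hold no values of single libraries, so the mean normalised read count of each state was derived from the deposited mean and fold change, and the error given is the standard error (SE) of the log2 fold change over 3 and 3 libraries. Less mark per cell and fewer cells with the mark cannot be told apart in these bulk samples.

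Cyclin A2 showed the lowest value. At the CCNA2 promoter (chr4:121822716-121824694, covering exon 1 of 8), the mean normalised count was 378 in non-senescent and 117 in senescent cells. This is a 3.24-fold loss, with a log2 fold change of -1.69 (SE 0.14, n = 3 and 3, P_adj = 3.74e-32), and it ranked 97th from the lowest of 13059 genes. Cyclin A2 accompanies the cell from S phase into mitosis, and its promoter peak also reaches into the annotated BBS7 gene.

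H3K27ac was also lost at the promoters of CDK1 and the B-type cyclins, which act together at mitosis. At CDK1, the kinase of cyclins A and B, the promoter peak (chr10:60777575-60781146, exons 1 and 2) fell from 596 to 220 mean normalised counts, with a log2 fold change of -1.44 (SE 0.12, n = 3 and 3, P_adj = 7.37e-32). A second, smaller peak in the promoter window of CDK1 (chr10:60781652-60782151, intronic) went from 29.7 to 11.7 counts and was lost as well (-1.34, SE 0.45, P_adj = 0.0097). At CCNB1 (chr5:69165747-69168504, exons 1 to 3) the count went from 454 to 180, a log2 fold change of -1.34 (SE 0.12, n = 3 and 3, P_adj = 1.32e-26). Its paralog CCNB2 (chr15:59104202-59106467, exon 1) went from 483 to 216, a log2 fold change of -1.16 (SE 0.12, n = 3 and 3, P_adj = 5.08e-19). The difference between the log2 fold changes of the B-type cyclins was -0.18, about the size of its SE of 0.17 when the peaks are taken as independent.

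The genes of the G1 to S transition did not form a uniform group. CCNE2 (chr8:94894048-94898040) had the highest non-senescent count per peak of the 7 promoters, 707 mean normalised counts, and fell to 290. This is a log2 fold change of -1.29 (SE 0.11, n = 3 and 3, P_adj = 2.22e-30). The CCNE2 peak was also the widest of the 7 (3993 bp), and its mean count per kb over both states was 125, against 154 at CCNB2. This peak also covers a start site of NDUFAF6, so its reads cannot be assigned to CCNE2 alone. CDK2 (chr12:55966089-55967635, exon 1) had the lowest level, 147 counts in non-senescent and 91.3 in senescent cells, and a smaller change of -0.69 (SE 0.18, n = 3 and 3, P_adj = 0.00082). A start site of PMEL lies in the CDK2 promoter peak, and annotated long non-coding RNA genes overlap those of CDK2, CCNB1 and CCNF. At CCNE1, the other E-type cyclin, no H3K27ac or CTCF peak was found within 2 kb of its 4 start sites or in its gene body among the rows analysed here.

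CCNF, the ubiquitin ligase subunit, changed least. Its promoter peak (chr16:2427896-2431313, exons 1 and 2) went from 428 to 271 counts, a 1.58-fold loss with a log2 fold change of -0.66 (SE 0.12, n = 3 and 3, P_adj = 2.22e-07). Arranged from the lowest log2 fold change, the order was CCNA2, CDK1, CCNB1, CCNE2, CCNB2, CDK2 and CCNF. Of the 6 steps between neighbours in this order, 5 were smaller than 2 combined SE, and the exception was the step of 0.47 from CCNB2 to CDK2 (combined SE 0.22). The log2 fold change of CDK1 minus that of CDK2 was -0.75 (combined SE 0.22). At a fold change above 2 the losses at CDK2 and CCNF were no longer called and the count dropped from 7 to 5. Per kb of peak, the mean normalised count ranged from 77.0 at CDK2 to 154 at CCNB2, below the median of 184 per kb over all promoter peaks.

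**Figure D1:**
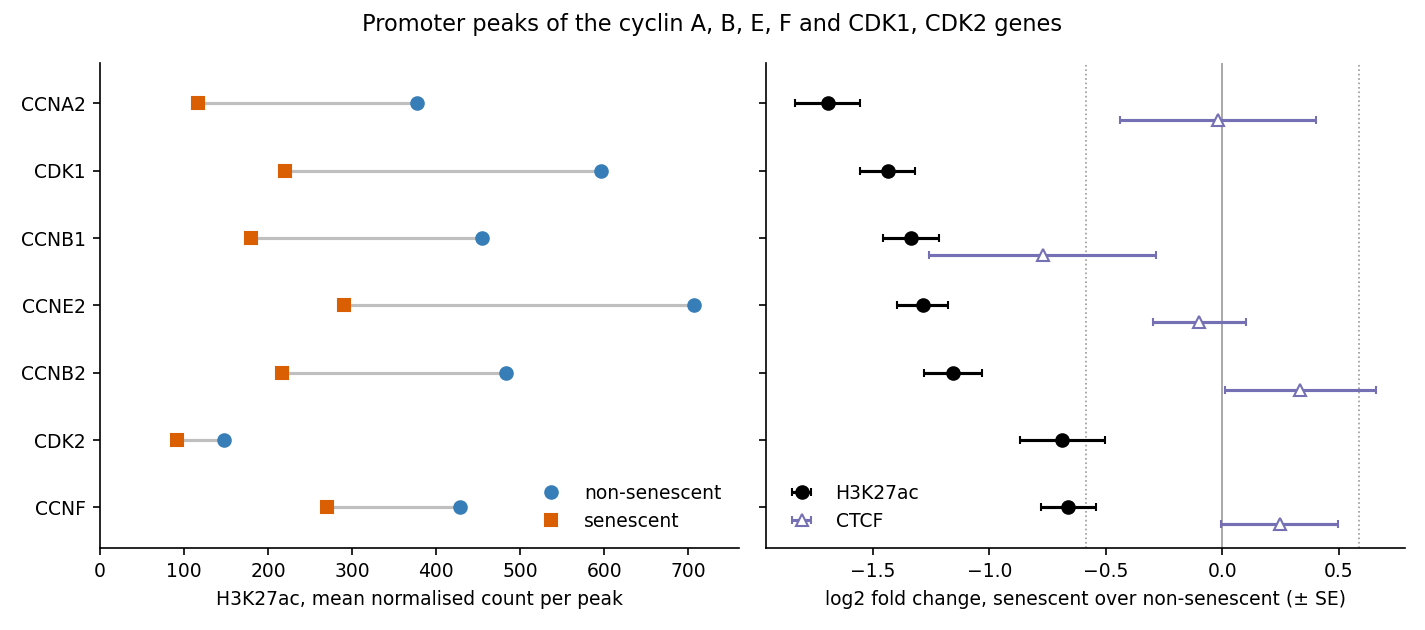
Promoter peaks by gene: left, mean normalised H3K27ac count per peak in non-senescent (circles) and senescent cells (squares), as derived from the deposited mean and fold change, with no error bar because no library values are given. Right, log2 fold change of H3K27ac (filled circles) and CTCF (open triangles) with SE (n = 3 and 3), dotted lines at a fold change of 1.5: the 7 H3K27ac values lie between -1.69 and -0.66, and no CTCF value was called.

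Set against all genes, the 5 lowest members ranked between 97th and 356th from the lowest of 13059 promoter values, while CDK2 ranked 1016th and CCNF 1079th. For scale, the promoter of MKI67, which encodes the proliferation antigen Ki-67, had a log2 fold change of -2.29 (rank 9), and that of CDKN1A, which encodes the CDK inhibitor p21, had 2.50 (rank 13056). Both were chosen as known ends of the scale, so it is no result that the 7 members lie between them.

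**Figure D2:**
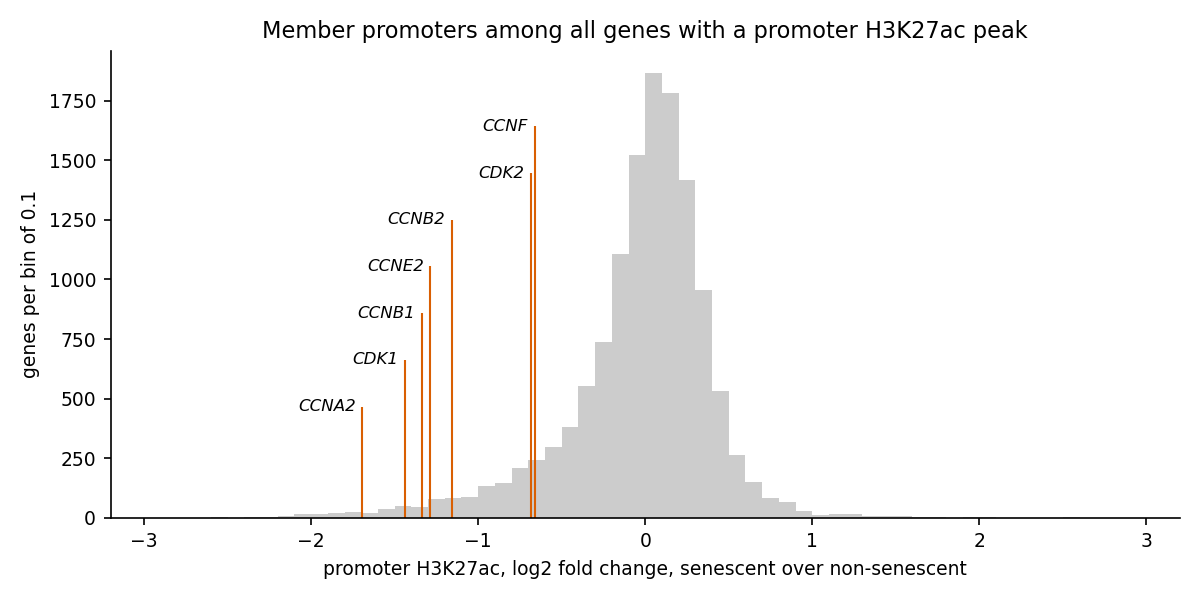
Distribution of the promoter H3K27ac log2 fold change (x axis) over 13059 genes in bins of 0.1 (y axis, genes per bin), with the 7 members as vertical lines whose height only separates the labels. Of the lines, 5 stand at or below -1.16 and those of CDK2 and CCNF at -0.69 and -0.66, left of the median of 0.038.

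Outside the promoter windows, H3K27ac did not move in one direction. Of 10 such peaks, 2 lost H3K27ac, 3 gained it and 5 were not called; over all 51489 peaks, 13.1% were lost and 9.47% gained. Their median log2 fold change was 0.20. Gains were found near CCNE1 and CCNF, and losses near CCNE2.

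Near CCNE1 both assigned H3K27ac peaks were gained. The peak upstream (chr19:29774554-29777004, its nearest edge 34987 bp from a start site, overlapping a long non-coding RNA gene) rose from 110 to 294 mean normalised counts, a 2.67-fold gain with a log2 fold change of 1.42 (SE 0.15, n = 3 and 3, P_adj = 8.64e-20). It was listed as an enhancer in both states: the senescent enhancer (chr19:29774559-29777004) spans 2446 bp and the non-senescent one (chr19:29775184-29776262) 1079 bp. The peak downstream (chr19:29844428-29846077, 27225 bp from the nearest start site) rose from 82.3 to 159 counts (0.95, SE 0.23, n = 3 and 3, P_adj = 0.000167) and overlapped an enhancer listed for senescent cells only (chr19:29844492-29845965). Assignment to CCNE1 rests on distance alone, and no contact between these regions and the CCNE1 promoter was measured here. They are the only listed enhancers assigned to any of the 8 genes.

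Around CCNE2 the distal peaks followed its promoter. Both lie upstream within the annotated NDUFAF6 gene, and their assignment to CCNE2 rests on distance alone. The nearer one (chr8:94905906-94906405) had 27.8 and 13.0 mean normalised counts in non-senescent and senescent cells (-1.10, SE 0.45, n = 3 and 3, P_adj = 0.0373), and the farther one (chr8:94915616-94917118) had 81.3 and 45.2 (-0.85, SE 0.25, n = 3 and 3, P_adj = 0.0032). Neither loss held in a test against a fold change of 1.5.

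At CCNF a peak upstream of the gene (chr16:2388279-2389849, 39598 bp from the start site) gained H3K27ac, from 48.3 to 79.2 counts (0.71, SE 0.27, n = 3 and 3, P_adj = 0.0233), opposite in sign to the CCNF promoter. Its assignment to CCNF rests on distance alone. The next promoter on that side, of ABCA3, had 0.56 (SE 0.19, P_adj = 0.0091), short of the fold limit. The CCNF gain and the downstream one of CCNE1 were not called at a fold change above 2. The CCNF body peak covers the TEDC2 start site and had 1354 and 1620 counts (0.26, SE 0.072, P_adj = 0.0015), short of the fold limit. In the CDK2 body, the peak that covers RAB5B and PMEL start sites had 775 and 859 counts (0.15, SE 0.094, P_adj = 0.208). The 3 distal peaks downstream of CDK1 had log2 fold changes of -0.28, -0.39 and 0.75, with SE from 0.28 to 0.45, and were not called. CCNA2, CCNB1 and CCNB2 had no assigned H3K27ac peak besides the promoter peak.

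**Figure D3:**
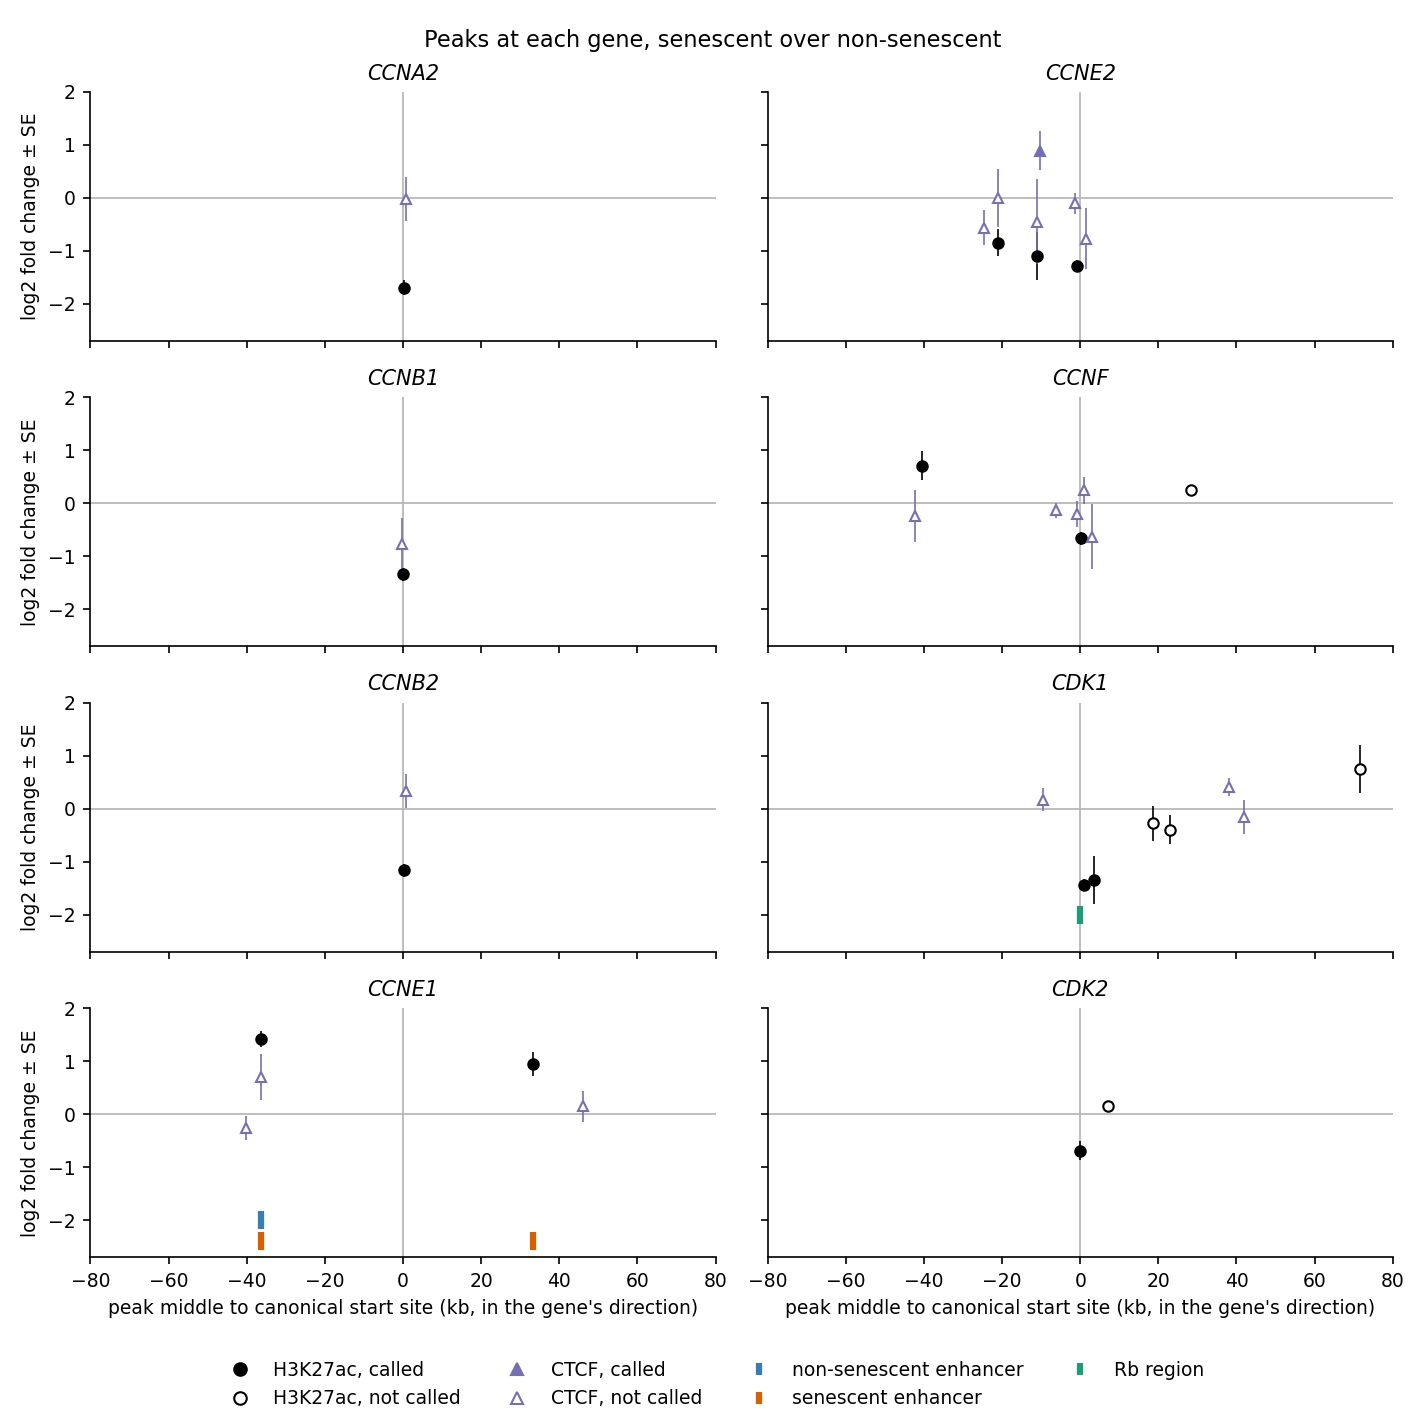
Peaks assigned to each gene by distance of the peak middle from the canonical start site (x axis, kb, in the direction of transcription) and log2 fold change with SE (y axis, n = 3 and 3): circles are H3K27ac, triangles CTCF, filled symbols called, and bars at the bottom the listed enhancers and the Rb region. H3K27ac losses stand at the start sites and upstream of CCNE2, and gains near CCNE1 (1.42 and 0.95) and upstream of CCNF (0.71).

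CTCF binding was then compared at the same genes. Of 20 CTCF peaks, 15 had an adjusted P in the deposited table; 0 were lost and 1 was gained at the limits used for CTCF (adjusted P under 0.2 and fold change above 1.5). Over all 39485 CTCF peaks with an adjusted P, 4.28% were lost and 2.99% gained. The study's own CTCF comparison was restricted to peaks with the CTCF motif, whereas all deposited CTCF peaks were used here. No member peak was below an unadjusted DESeq2 P of 0.05 with a lower value in senescent cells, and 2 were below it with a higher value.

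The promoter windows held 7 CTCF peaks, 2 each at CCNE2 and CCNF and 1 each at CCNA2, CCNB1 and CCNB2, and none of them was called. Taking the strongest peak of each gene, the log2 fold changes were -0.02 at CCNA2 (SE 0.42), -0.77 at CCNB1 (SE 0.49), 0.33 at CCNB2 (SE 0.32), -0.10 at CCNE2 (SE 0.20) and 0.25 at CCNF (SE 0.25). Their median was -0.020, against -0.17 over 9369 genes with a promoter CTCF peak. The CCNB1 peak had 17.7 mean normalised counts and no adjusted P. Of 7867 genes with an adjusted P at the promoter, 5.49% lost CTCF and 0.585% gained it, and of the 4 members with an adjusted P none was called. CDK1, CDK2 and CCNE1 had no CTCF peak in the promoter window, and no CTCF peak was assigned to CDK2 at all. With SE between 0.20 and 0.49, changes near the fold limit were not all detectable at these peaks.

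The CTCF gain lay upstream of CCNE2, in NDUFAF6 (chr8:94905139-94905943, 8461 bp from the nearest CCNE2 start site). Its mean normalised count was 23.1 in non-senescent and 42.8 in senescent cells (0.89, SE 0.37, n = 3 and 3, P_adj = 0.151). It overlaps by 38 bp the upstream H3K27ac peak of CCNE2 that was lost. The call did not hold at an adjusted P under 0.05, at a fold change above 2, or with the GC trend removed (P_adj = 0.227). A CTCF peak downstream of CDK1 (chr10:60815730-60817535) passed the P limit but not the fold limit, with 191 and 255 counts (0.41, SE 0.18, P_adj = 0.178). It did not pass the P limit with the GC trend removed (0.15, P_adj = 0.789) or with adjustment over all peaks (P_adj = 0.212). The peak inside the upstream CCNE1 enhancer (chr19:29775478-29776081) had 18.3 and 29.8 counts (0.70, SE 0.43, P_adj = 0.384). Allowing for 1 mismatch, 8 of the 20 member peaks held the CTCF core motif searched for here, against 47.2% of all CTCF peaks. The gained peak upstream of CCNE2 was not among the 8, its best match having 2 mismatches. The core motif was in none of the 5 strongest promoter peaks, against 37.0% of 9369 such peaks over all genes. Of the 20 CTCF peaks, 10 overlapped a member H3K27ac peak. The share over all CTCF peaks was not counted, so this is not set against a background.

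Senescence-specific Rb binding was listed at 1 of the 8 genes. The region (chr10:60778193-60778461, 269 bp) lies at the CDK1 promoter inside the H3K27ac peak that was lost. It covers the first annotated CDK1 start site and ends 17 bp ahead of the canonical one, so it takes in 138 bases of the longer CDK1 stretch printed above, including its E2F match, and 14 bases of the shorter one. The list holds positions without heights or P values, and nothing can be drawn from it on Rb at the other 7 genes beyond their absence from it. Per the study's methods, the regions were called against non-senescent samples at an unadjusted P limit, from 2 and 2 libraries. The share of all genes with such a region was not counted, so 1 of 8 is not set against a background.

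The promoters of further cell-cycle genes were examined as a reference. Among 15 regulators of cyclin-CDK complexes, 14 had a promoter H3K27ac peak, of which 5 were lost, 0 gained and 9 not called, with a median log2 fold change of -0.28. For this and the following lists, the share over all genes with a promoter peak was 8.94% lost and 3.15% gained. UBE2C, the ubiquitin-conjugating enzyme of the anaphase-promoting complex (APC/C), went from 570 to 235 mean normalised counts (-1.28, SE 0.11, P_adj = 1.53e-29). FBXO5, an inhibitor of the APC/C, had a log2 fold change of -0.91 (SE 0.085), and CDC20, an activator of it, -0.80 (SE 0.11). PKMYT1, a kinase that restrains CDK1, had -0.88 (SE 0.16), and CDC25A, a phosphatase that activates CDKs, -0.69 (SE 0.12). The 9 that were not called ranged up to 0.17 and included the kinase WEE1 (-0.33, SE 0.060), which was short of the fold limit at P_adj = 5.73e-07. CCNA1, the other A-type cyclin, had no promoter peak.

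CDK inhibitors did not share a direction. Of 7 promoters, 2 gained H3K27ac (CDKN1A at 2.50, CDKN1C at 0.60, SE 0.069), 1 lost it (CDKN2D, which encodes p19-INK4d, at -1.14, SE 0.12) and 4 were not called. Among the cyclins D and their kinases, which act before the members in G1, 3 of 5 had a promoter peak and CDK6 lost H3K27ac (-0.71, SE 0.20), whereas CDK4 (0.12, SE 0.081) and CCND3 (0.18, SE 0.13) were not called. Of 16 cyclins and CDKs listed for roles in transcription, 16 had a promoter peak and 0 were called. Their median was 0.18 and their range -0.04 to 0.49. At the shares over all genes, a count of 0 in a list of this size is near the background. The lists were chosen with earlier results known and their medians are given as descriptions beside the 0.038 over all genes.

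**Figure D4:**
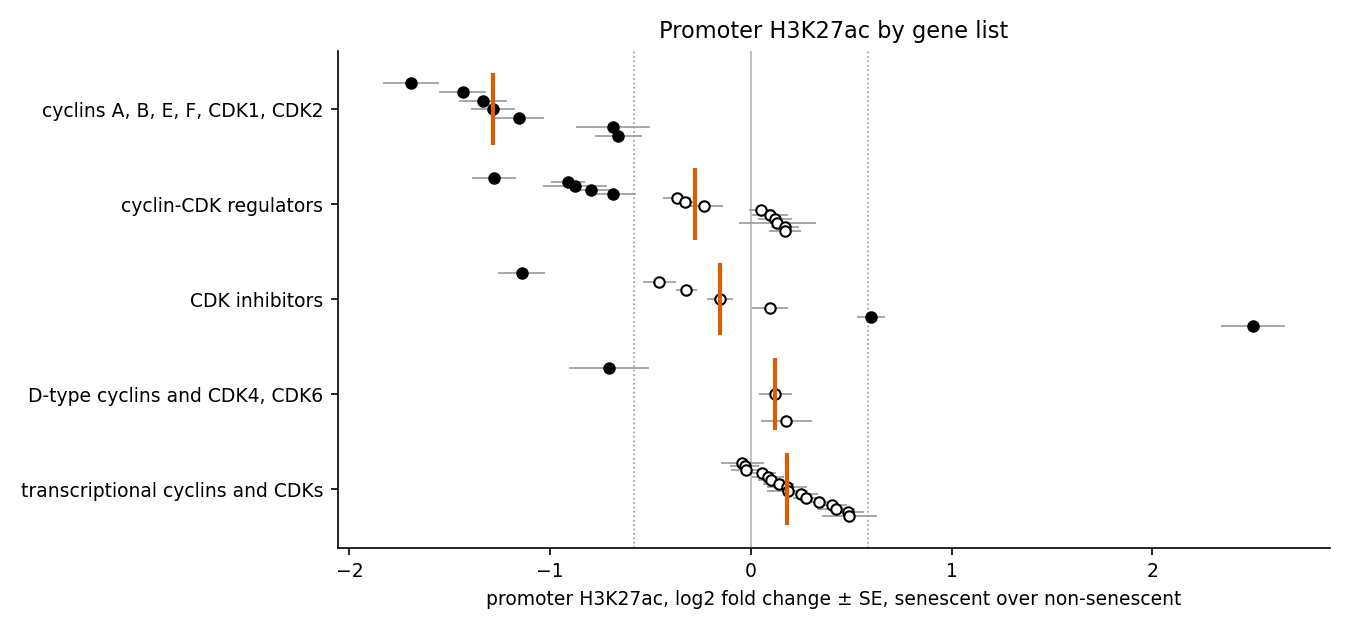
Promoter H3K27ac log2 fold change with SE (x axis, n = 3 and 3) of each gene by list (y axis); filled points were called, the vertical bar is the median of the list and dotted lines mark a fold change of 1.5. The medians run from -1.29 in the cyclin A, B, E, F, CDK1 and CDK2 genes to 0.18 in the transcriptional cyclins and CDKs.

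Finally, the next genes on either side that had a promoter H3K27ac peak of their own were described. Of 16 neighbouring promoters, with start sites 7248 to 388603 bp away, 0 were called in either direction, a count near the background of 8.94% lost and 3.15% gained over all genes, so nothing is read from it. Their log2 fold changes ranged from -0.51 to 0.56, with a median of 0.088, and at an adjusted P under 0.05 without the fold limit 4 were lower and 4 higher in senescent cells. Next to CCNA2, EXOSC9 had -0.35 (SE 0.089) on one side and BBS7 0.36 (SE 0.090) on the other. Beside CCNE2, TP53INP1 had -0.44 (SE 0.067) and INTS8 -0.07 (SE 0.086). ABCA3, beside CCNF, had 0.56 (SE 0.19). Next to CDK1, RHOBTB1 had -0.51 (SE 0.092) and ANK3 0.56 (SE 0.12), and next to CCNB1, CENPH had -0.46 (SE 0.089) and SLC30A5 0.15 (SE 0.084). The neighbours of CCNE1, C19orf12 at 0.20 (SE 0.12) and URI1 at -0.02 (SE 0.16), were not called while the enhancer peaks between them gained H3K27ac. The peaks of TEDC2, next to CCNF, and RAB5B, next to CDK2, are the CCNF and CDK2 body peaks already described among the peaks outside the promoter windows.

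**Figure D5:**
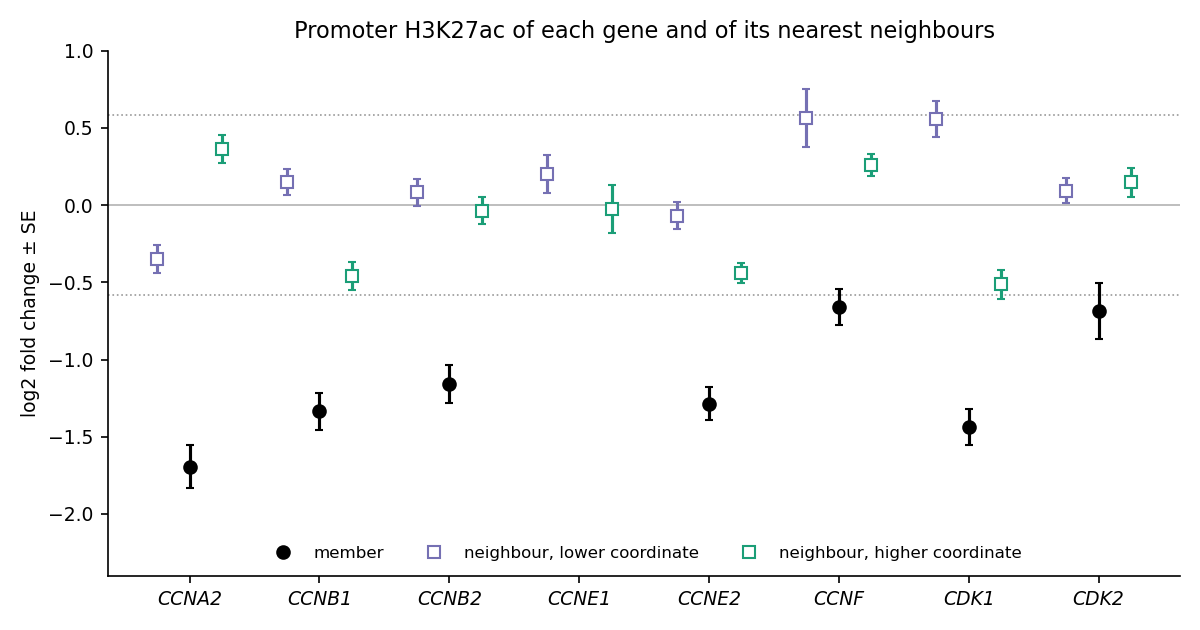
Promoter H3K27ac log2 fold change with SE (y axis, n = 3 and 3) of each member (filled circles) and of the nearest gene with its own promoter peak on either side (open squares), by member (x axis); dotted lines mark a fold change of 1.5. The 16 neighbours lie between -0.51 and 0.56 and the 7 members at or below -0.66; CCNE1 has no promoter peak.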

How the data were processed

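ChIP-seq of EndoC-βH3 cells was analysed from 2 deposited tables (H3K27ac, CTCF) and 3 deposited region lists, grouped by antibody and treatment from the labels. Per the study's methods, the authors aligned reads to hg38 with Bowtie2, called peaks with HOMER or MACS2 and compared counts in peaks with DESeq2. Tool versions and the pooling of replicates are not given in the sources used here. The signal deposited per peak averages size-factor-scaled counts of all libraries. Deposited log2 fold changes are of senescent relative to non-senescent cells. The standard error and the Wald statistic are the authors' score columns. Deposited p-values and their Benjamini-Hochberg adjustment were taken from the authors, and 11972 of 51457 CTCF peaks without an adjusted value stayed uncalled. Deposited lists hold positions only.

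The tables give no library values, so a planned count test was not run, no model was refitted, and depth per library is unknown. The median SE was 0.19 for H3K27ac and 0.29 for CTCF. Scaling by size factors hides any global change of a mark. State means were solved from signal and fold change and are approximate. Starts were raised by 1; 24 of 24 chromosome names matched hg38. Start sites were those of GENCODE 44 protein-coding transcripts, and overlap meant 1 bp or more. Python 3.11.15, pandas 2.3.3 and scipy 1.17.1 were used. The calling rule was run on values simulated with the deposited SE, which cannot show how reliable the calls are. Alternatives were other fold limits, a test against 1.5, a count minimum, centring, canonical transcripts, other windows and, for CTCF, the P limit, adjustment over all peaks and GC content. Named genes were the 8 members, genes of the other lists with a called promoter, MKI67 and CDKN1A; others were chosen after their values were seen. CTCF calls at beta cell marker promoters are not reported here. Members and lists were chosen with earlier results of these data known.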

Additional observations from a re-analysis of the deposited data

How the results depend on the processing

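Of 49 recomputed member promoter values, 45 kept the call and 4 lost it: CDK2 and CCNF at a fold change above 2 and in a test against 1.5, each of which left 5 of 7 promoters called. Apart from centring and averaging over the promoter peaks of a gene, the alternatives left these H3K27ac log2 fold changes themselves unchanged. That 0 of these values reversed direction is therefore no evidence of robustness. Removing the GC trend did shift the CTCF log2 fold changes and reversed some signs, as at the strongest CCNE2 promoter peak (from -0.10 to 0.18, not called in either). The count of 7 was unchanged in the other alternatives run on it. At a fold change above 2, 1 other H3K27ac peak was lost and 1 gained, 1 regulator promoter was lost and 0 CTCF peaks were gained. In the test against 1.5 these were 0, 1, 2 and 0. Without a fold limit, 8 regulator promoters were lost and 1 gained, 2 CTCF peaks were gained, and gains at other H3K27ac peaks went from 3 to 4. With a mean count of at least 50, 1 other H3K27ac peak was lost and 0 CTCF peaks were gained, the called peak having 32.9 counts. At an adjusted P under 0.05 and with the GC trend removed, 0 CTCF peaks were gained. With canonical transcripts only, 1 CTCF peak was lost (near CCNB2, chr15:59137994-59138750, log2 fold change -0.64, P_adj = 0.130), because that peak was assigned to another gene in the main comparison; losses went from 2 to 3 at other H3K27ac peaks and from 5 to 6 at regulator promoters. Centring on promoter peaks moved values by 0.031. No paired analysis was possible because the tables hold no values per library; for the same reason leaving out single libraries and another tool or normalisation were not run. SE of 0.20 to 0.49 limits what CTCF promoter peaks can show.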

Other observations

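The remaining genes with a cyclin or CDK symbol were looked at after the member values had been seen. Of 25 such genes, 21 had a promoter H3K27ac peak, with a median log2 fold change of 0.15 and a range from -2.30 to 0.84. H3K27ac was lost at 1, CDK18 (-2.30, SE 0.62, P_adj = 0.00088), whose peak had only 13.6 mean normalised counts, and gained at 1, CDK3 (0.84, SE 0.29, P_adj = 0.0140). Both counts are near the shares over all genes, 8.94% lost and 3.15% gained.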
